A study of Mus musculus with 6 samples.

Results

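Hepatokines are proteins that the liver releases to act on other organs. The 9 hepatokine genes described here were taken from a fixed list of symbols, and each was found as a single row among the 54600 genes of a table of mouse liver expression. They are Fgf21, Gdf15, Lect2, Fetub, Ahsg, Angptl4, Angptl8, Inhbe and Selenop. The table holds 6 RNA-seq libraries of liver from mice given a high-fat diet for 16 weeks. By their titles 3 are wild type (WT) and 3 knockout (KO). That the knockout is of HIF-2α in hepatocytes is the study's account, and these titles do not name the gene. Epas1 is the gene of HIF-2α, a transcription factor stabilised when oxygen is low. The study addresses its part in metabolic dysfunction-associated steatotic liver disease, the fatty liver that such a diet produces. The labels do not give the Cre line, the age or sex of the mice or the strain, and do not say that each library came from a separate animal. The p-values therefore measure only the spread between these libraries.

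Several hepatokines are hormones of nutrient stress. Fgf21 transcription is known to be driven by the fatty acid receptor PPAR alpha and by the stress factor ATF4, and Gdf15 by stress pathways in many tissues. Others tune lipid traffic: ANGPTL4 and ANGPTL8 inhibit lipoprotein lipase, and activin E, the product of Inhbe, acts on adipose tissue. The fetuins, LECT2 and selenoprotein P are plasma proteins that hepatocytes secrete.

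No hepatokine gene passed the test between the labels. In limma, a linear model fitted to log2(TPM + 1) of the 11440 genes that reached 1 TPM in 3 or more libraries, 0 of 9 members passed a Benjamini-Hochberg adjusted p of 0.05, against 0.00874% of all tested genes (1 gene, Gm13597, lower in KO and named because of its result). TPM gives the abundance of a gene's transcripts per unit of length, as a share of a fixed total. Adjusted limma p-values of the members were 0.993 or 0.994. At an unadjusted p below 0.05 the count was also 0 of 9, against 3.15% of tested genes. The values of the labels overlapped in all 9 members, while they did not overlap in 9.08% of tested genes. Of the members, 5 had a higher and 4 a lower mean log2 value in the libraries labelled KO, and their median difference was +0.06. Over all tested genes 74.5% were higher and the median was +0.09. Scaling the libraries by median ratios brought that median to -0.002 and the members' median to -0.04, with 4 of 9 above 0.

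Epas1 did not bear out the labels: its TPM was 23.8, 26.0 and 21.0 with the WT label, below the 26.6, 35.1 and 29.4 with the KO label. Its log2 difference was +0.34 (limma unadjusted p = 0.050, adjusted 0.993), and +0.24 with median-ratio scaling (limma unadjusted p = 0.097). Its values cover the whole gene and every liver cell type, so the deletion could not be checked, and WT and KO below mean the libraries so labelled. Hepatocyte markers summed to 52954 to 63265 TPM in WT and 57297 to 76860 in KO libraries (8 of 10 higher in KO, 6 with median-ratio scaling). Markers of other cells were far lower: 247 to 354 and 314 to 336 TPM for Kupffer cells and macrophages (9 of 10 higher, 6 when scaled), 146 to 164 and 146 to 183 for endothelium (9 of 10, 3 when scaled), and 204 to 248 and 236 to 296 for stellate cells and fibroblasts (9 of 9 tested, 6 when scaled). Cholangiocyte markers summed to 29.6 to 40.9 and 39.9 to 64.1 TPM, mostly Spp1, and neutrophil and lymphocyte markers to 3.54 to 13.9 and 8.49 to 10.1. Adipose markers summed to 3.42 to 40.5 and 4.80 to 38.1 TPM, with Adipoq, Lep and Retn listed at 0 in all libraries, and muscle and pancreas markers to 2.28 to 3.99 and 1.78 to 2.36, with Ckm, Myh4, Prss1, Cpa1 and Ins2 at 0. The muscle and pancreas sums came from Acta1, Mylpf and Cela2a. Counts and depth cannot be recovered from TPM, and in bulk tissue fewer cells of a type cannot be told from less RNA per cell.

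On the TPM scale, which allows levels of different genes to be compared, the members spanned 3520-fold. Ahsg had a mean of 4648 TPM over the 6 libraries and Selenop 3223, followed by Fetub at 289.6, Lect2 at 219, Angptl4 at 45.9, Angptl8 at 15.4, Inhbe at 8.83, Fgf21 at 1.88 and Gdf15 at 1.32. Ahsg and Selenop supplied 93.1% of the summed hepatokine TPM. Ranges over the libraries did not overlap between Ahsg and Selenop, Selenop and Fetub, Lect2 and Angptl4, or Angptl4 and Angptl8. They did overlap between Fetub and Lect2, between Angptl8 and Inhbe, between Inhbe and Fgf21 and between Fgf21 and Gdf15, and Fgf21 was above Gdf15 in 3 of 6 libraries. Fgf21 and Gdf15 were the scarcest transcripts of the set, with 87.2% of tested genes above Fgf21 and 96.8% above Gdf15.

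**Figure D1:**
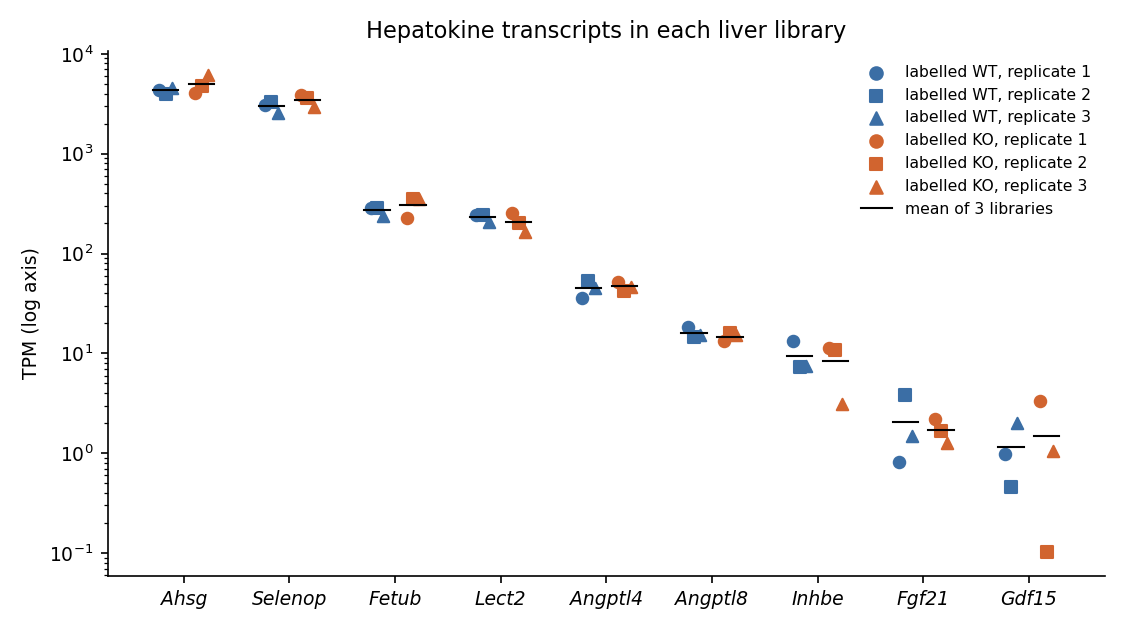
TPM on a log axis of the 9 hepatokine genes in each library, ordered by mean. Colours give the label, shapes the replicate number and bars the mean of 3 libraries; WT and KO points overlap for every gene, and Inhbe, Fgf21 and Gdf15 scatter most, with Gdf15 at 0.103 TPM in KO replicate 2.

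RefSeq promoter windows of 3 of these genes share an 8-base element. They are shown because it is of the kind through which ATF4, paired with a C/EBP factor, is known to act. RefSeq windows of 300 bases (GRCm38.p6, 250 before and 50 after a start site) were found for 8 of the 9 members, in 12 windows, and Angptl4 had none. TGATGCAA, searched on both strands, lay in the windows of Fgf21, Inhbe and Angptl8, against 0.896% of 32817 windows of all genes and 0.644% of the 11028 windows of tested genes. The sequences below run 5′ to 3′ on each gene's strand (Fgf21 chr7:45615441-45615740, minus; Inhbe chr10:127351799-127352098, minus; Angptl8 chr9:21835260-21835559, plus), with capitals for this element and for ACGTG, the core of the HIF binding motif, in either orientation.
Fgf21: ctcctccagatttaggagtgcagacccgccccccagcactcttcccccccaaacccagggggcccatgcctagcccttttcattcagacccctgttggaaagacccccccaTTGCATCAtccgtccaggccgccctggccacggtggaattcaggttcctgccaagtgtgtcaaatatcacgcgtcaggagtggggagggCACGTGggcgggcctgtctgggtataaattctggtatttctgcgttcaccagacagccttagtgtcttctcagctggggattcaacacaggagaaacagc
Inhbe: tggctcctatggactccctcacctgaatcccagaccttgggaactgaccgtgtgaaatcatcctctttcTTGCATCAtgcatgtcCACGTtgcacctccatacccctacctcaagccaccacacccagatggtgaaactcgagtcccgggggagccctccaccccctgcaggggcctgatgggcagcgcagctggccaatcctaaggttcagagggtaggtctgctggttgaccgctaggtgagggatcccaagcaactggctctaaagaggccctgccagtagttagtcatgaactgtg
Angptl8: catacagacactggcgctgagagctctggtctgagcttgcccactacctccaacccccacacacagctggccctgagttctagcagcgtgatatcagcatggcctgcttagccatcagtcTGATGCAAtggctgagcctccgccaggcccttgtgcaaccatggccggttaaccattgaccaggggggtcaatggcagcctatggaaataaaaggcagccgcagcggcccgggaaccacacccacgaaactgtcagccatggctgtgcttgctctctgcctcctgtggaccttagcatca
The element began 139, 181 and 130 bases before the RefSeq start site in Fgf21, Inhbe and Angptl8. The Inhbe window lies inside the gene as annotated by GENCODE (127348857 to 127354411, minus strand). Its RefSeq start site is therefore downstream of the annotated 5′ end. The Gdf15 window with the ACGTG reported next (70632046 to 70632345) also lies inside its annotated gene (70629393 to 70632456). It read TTGCATCA on the gene's strand in Fgf21 and Inhbe and TGATGCAA in Angptl8. ACGTG was found in windows of Fgf21, Inhbe and Gdf15, in 3 of the 12 windows, against 19.6% of all windows and 25.8% of those of tested genes, and in Fgf21 and Gdf15 it lay within the palindrome CACGTG, the E-box, which 7.15% of all windows and 9.98% of those of tested genes hold. The PPAR element, AGGTCA repeated after 1 base of any kind, was in 0 of 12 windows, against 0.0396% of all. At so low a share, nearly any 12 windows would hold 0. A match of letters is a description and not a bound site.

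Fgf21 encodes fibroblast growth factor 21, a hormone that acts through FGFR1 and the co-receptor beta-Klotho. The gene (ENSMUSG00000030827; mm10 chromosome 7, 45613886 to 45615490, minus strand, 3 exons) was at 0.815, 3.86 and 1.47 TPM in the WT libraries and 2.19, 1.66 and 1.27 TPM in the KO libraries. WT replicate 2 was the highest and WT replicate 1 the lowest, so all 3 KO values fell inside the WT range. The WT mean was 2.05 ± 1.60 TPM and the KO mean 1.71 ± 0.461 (SD, n = 3 each), for a log2 difference of -0.06 with a standard error of 0.35 (limma unadjusted p = 0.871; 95% interval -0.88 to +0.76). Without WT replicate 2 the difference was +0.34, and without KO replicate 3 it was +0.06. Its neighbours were Bcat2, of branched-chain amino acid breakdown, at 12.2 and 11.4 TPM, and Fut1 at 0.093 and 0.134.

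Gdf15 encodes a stress-induced cytokine of the TGF-beta superfamily that lowers food intake through GFRAL in the hindbrain. The gene (ENSMUSG00000038508; chromosome 8, 70629393 to 70632456, minus strand) was at 0.979, 0.464 and 1.996 TPM in WT and 3.33, 0.103 and 1.05 TPM in KO libraries. Both the highest and the lowest value were KO libraries, 32.3-fold apart, and the libraries numbered 2 were the lowest of each label. The log2 difference was +0.06 with a standard error of 0.50 (limma unadjusted p = 0.910; 95% interval -1.10 to +1.22), and median-ratio scaling left it at 3.3e-04. Gdf15 reached 1 TPM in 3 libraries and passed the filter on low values by that margin. Its interval, from 0.466- to 2.32-fold on the TPM + 1 scale, was the widest of the set.

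Inhbe encodes the subunit of activin E, a liver-derived signal that restrains lipolysis in adipose tissue through the receptor ACVR1C. The gene (ENSMUSG00000047492; chromosome 10, 127348857 to 127354411, minus strand) was at 13.3, 7.23 and 7.42 TPM in WT and 11.2, 10.7 and 3.12 TPM in KO libraries. KO replicate 3 stood below the other 5 libraries and WT replicate 1 above them. The log2 difference was -0.25 with a standard error of 0.44 (limma unadjusted p = 0.585; 95% interval -1.27 to +0.77). Without KO replicate 3 it was +0.26 and without WT replicate 1 it was +0.01. Inhbc, which encodes the related activin C subunit and lies 1911 bases away, was at 42.5, 28.01 and 35.996 TPM in WT and 41.1, 23.0 and 42.4 in KO libraries. Unlike Inhbe, it was not low in KO replicate 3.

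The spread between libraries of one label was wide for these 3 genes. The within-label SD of log2(TPM + 1) was 0.54 for Fgf21, 0.79 for Gdf15 and 0.70 for Inhbe, above that of 91.0%, 95.9% and 97.1% of tested genes whose mean log2 level lay within 0.5 of theirs. For Angptl8 and Selenop the same shares were 31.5% and 33.3%. Lect2, Fetub, Ahsg and Angptl4 lay between. For Ahsg and Selenop the comparison rested on only 18 and 24 genes near their level.

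**Figure D2:**
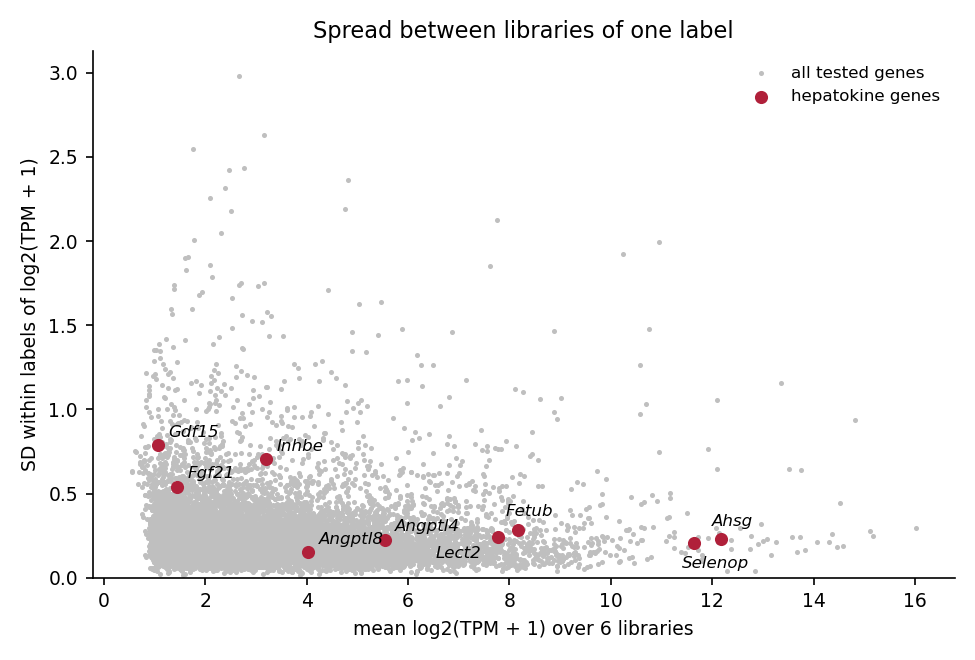
Within-label SD of log2(TPM + 1) against mean log2(TPM + 1) over 6 libraries for all 11440 tested genes (grey) and the hepatokine genes (red). Gdf15, Inhbe and Fgf21 sit in the upper part of the cloud at their level, at 0.79, 0.70 and 0.54, whereas Angptl8 sits in the lower part at 0.15.

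The genes with the most similar pattern were sought for the 3 members whose range exceeded 1 log2 unit, as those of 7089 genes with a mean of at least 5 TPM that had the smallest root mean square difference of mean-centred log2 values over the 6 libraries. With 6 libraries and so many genes, close matches are easily found. The gene most like Gdf15 was Dnajb9 (0.19 log2 units), a chaperone of the endoplasmic reticulum induced by the unfolded protein response, at 40.9, 27.5 and 53.98 TPM in WT and 60.9, 21.9 and 37.4 in KO libraries. Cks1b and the predicted gene Gm3219 followed at 0.30 and 0.33. Closest to Inhbe were Fnip2 (0.18), Ppara (0.18), which encodes PPAR alpha, and Srebf1 (0.22), the lipogenic regulator. Ppara was at 72.6, 57.4 and 47.9 TPM in WT and 70.3, 83.1 and 28.1 in KO libraries, and Srebf1 at 127, 86.6 and 64.6 and at 107, 139.9 and 32.3. Both were lowest in KO replicate 3, as Inhbe was. Closest to Fgf21 were Gm7488 (0.16), Lpin2 (0.19), a phosphatidate phosphatase of triglyceride synthesis, and Gng11 (0.19). Lpin2 was at 51.2, 95.5 and 70.5 TPM in WT and 75.7, 68.7 and 53.3 in KO libraries, with WT replicate 2 again the highest.

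**Figure D3:**
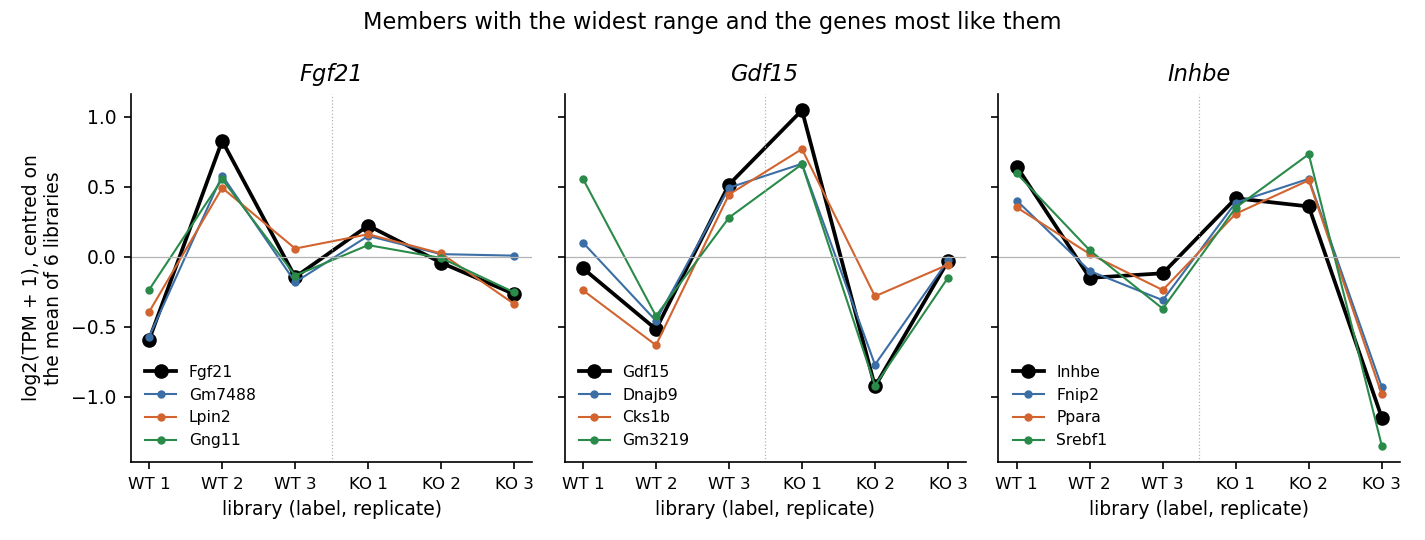
log2(TPM + 1) centred on the mean of the 6 libraries for Fgf21, Gdf15 and Inhbe (black) and the 3 genes most like each (colours); lines only join the points of a gene. Fgf21 peaks in WT replicate 2, Gdf15 is highest in KO replicate 1 and lowest in KO replicate 2, and Inhbe is lowest in KO replicate 3.

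The pathways known to drive these hormones were compared through fixed lists. None of 14 tested genes of the ATF4 and integrated stress response passed either threshold, with 11 above 0 and a median of +0.08 (7 and -0.016 with median-ratio scaling). Chac1, a glutathione-degrading enzyme, was at 1.98, 1.69 and 4.10 TPM in WT and 3.27, 2.89 and 7.06 in KO libraries, Cebpg, a partner of ATF4, at 13.0 ± 2.14 and 16.8 ± 3.44, and Atf3 at 0.845 ± 0.478 and 1.22 ± 0.246 (SD, n = 3 each). Of 14 endoplasmic reticulum chaperone and unfolded protein response genes 12 were above 0 and 0 passed, with a median of +0.31 (10 and +0.20 with median-ratio scaling). The transcription factor gene Xbp1 was at 96.0, 59.5 and 78.1 TPM in WT and 86.99, 94.9 and 211 in KO libraries. The chaperone genes Hsp90b1 and Pdia6 were at 223 ± 37.2 and 97.3 ± 40.1 TPM in WT and 289 ± 95.8 and 133 ± 45.9 in KO libraries. The per-library mean of this list was lowest in the libraries numbered 2 of each label (-0.67 and -0.49 log2 units from the mean over libraries), which were also the lowest for Gdf15 in their label. It was highest in KO replicate 3 (+0.56, against +0.33 in KO replicate 1), whereas Gdf15 was highest in KO replicate 1.

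Of 21 PPAR alpha targets 14 were above 0 and 0 passed, with a median of +0.08 (9 and -0.034 with median-ratio scaling). Their per-library mean was low in the libraries numbered 3 (-0.59 in WT, -0.52 in KO) and highest in KO replicate 1 (+0.53), and Fgf21 did not share that order. Creb3l3, a liver factor known to activate Fgf21 together with PPAR alpha, was at 129 ± 5.21 and 144 ± 9.91 TPM. Pdk4, the fasting-induced kinase of pyruvate dehydrogenase, was at 1.32, 3.64 and 1.61 TPM in WT and 1.31, 1.68 and 1.32 in KO libraries, highest in WT replicate 2 like Fgf21. Cyp4a31, a fatty acid hydroxylase gene, was at 2.05 ± 0.429 and 1.65 ± 1.30. Among 12 fasting and glucocorticoid response genes, 9 were above 0 and the median was +0.13 (9 and +0.02 with median-ratio scaling). In 1 of the 12 the unadjusted p was below 0.05, against 3.15% of all tested genes. Tsc22d3, the glucocorticoid-induced leucine zipper gene, had that p, 0.032 in limma (adjusted 0.993), at 108, 113 and 116 TPM in WT and 102, 66.99 and 43.8 in KO libraries. Fkbp5, also glucocorticoid-induced, was at 6.78 ± 1.87 and 10.5 ± 3.55 TPM, in the other direction, and Irs2 at 1.99 ± 0.458 and 3.30 ± 1.43.

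Angptl4 and Angptl8 encode secreted inhibitors of lipoprotein lipase, the first known as a fasting-, PPAR- and hypoxia-induced gene and the second as insulin-induced. Angptl4 (ENSMUSG00000002289; chromosome 17, 33773750 to 33781830, minus strand, 7 exons) was at 36.0, 53.4 and 45.5 TPM in WT and 52.3, 41.9 and 46.4 in KO libraries. Its KO values lay inside the WT range. The log2 difference was +0.07 with a standard error of 0.17 (limma unadjusted p = 0.697; 95% interval -0.33 to +0.47), and median-ratio scaling turned it to -0.04. Angptl8 (ENSMUSG00000047822; chromosome 9, 21835510 to 21837347, plus strand, 4 exons) was at 18.5, 14.5 and 15.4 TPM in WT and 13.2, 15.9 and 15.1 in KO libraries, the narrowest range of the set at 1.40-fold. The log2 difference was -0.12 with a standard error of 0.14 (limma unadjusted p = 0.414), and its interval, from 0.733- to 1.15-fold on the TPM + 1 scale, was the tightest. Angptl8 lies inside Dock6, on the opposite strand and with 0 shared exonic bases, and Dock6 was at 4.79 and 6.07 TPM.

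In a fixed list of the lipoprotein lipase system, 9 of 14 genes were above 0 and 0 passed (median +0.10; 7 and -0.0074 with median-ratio scaling). Lpl itself was at 4.65 ± 0.670 and 5.44 ± 1.36 TPM, the hepatic lipase gene Lipc at 112 ± 15.2 and 127 ± 17.0, the lipase maturation gene Lmf2 at 5.85 ± 1.002 and 6.74 ± 0.362, and Furin, a protease that cleaves ANGPTL proteins, at 50.6 ± 2.99 and 54.9 ± 3.65. Of 14 lipogenic genes that respond to insulin and carbohydrate, 13 were below 0 with a median of -0.40 and 0 passed (-0.51 with median-ratio scaling, with 1 above 0 as before). Fasn, the fatty acid synthase, ranged from 118.6 to 399 TPM in WT and from 32.98 to 192 in KO libraries. Mlxipl, which encodes the carbohydrate-responsive factor ChREBP, was in the other direction at 28.2 ± 6.23 and 36.1 ± 6.80 TPM. The per-library mean of this list was -0.11, +1.04 and -0.32 in WT and +0.06, +0.68 and -1.34 in KO libraries. Only KO replicate 3 lay outside the WT range. Whereas that mean was lowest in KO replicate 3 and highest in WT replicate 2, Angptl8 was at 15.1 and 14.5 TPM in those libraries.

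The fetuin genes Ahsg and Fetub lie next to each other on chromosome 16. Ahsg (ENSMUSG00000022868; 22891277 to 22899449, plus strand) encodes fetuin-A, a mineral-binding plasma protein that inhibits the insulin receptor, and was at 4358, 3958 and 4561 TPM in WT and 4025, 4798 and 6187 in KO libraries. Fetub (ENSMUSG00000022871; 22918334 to 22939778, plus strand) encodes fetuin-B, an inhibitor of the egg protease ovastacin, and was at 283, 288 and 238 TPM in WT and 225, 348 and 355 in KO libraries. KO replicates 3 and 2 were the highest libraries for both genes, and KO replicate 1 lay within or below the WT range. Ahsg differed by +0.20 with a standard error of 0.19 and Fetub by +0.17 with one of 0.20 (limma unadjusted p = 0.334 and 0.422). Without KO replicate 1 the difference of Fetub was +0.39 (limma unadjusted p = 0.046, adjusted 0.998).

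Among 7 genes of the fetuin and kininogen cystatin list, both fetuins included, 7 were above 0 and 0 passed, with a median of +0.17 (5 and +0.06 with median-ratio scaling). Hrg, the histidine-rich glycoprotein gene beside Fetub, was at 520, 615 and 466 TPM in WT and 474, 645 and 575 in KO libraries. The kininogen genes Kng1 and Kng2 were at 854 ± 118 and 149 ± 32.5 TPM in WT and 998 ± 189 and 172 ± 31.3 in KO libraries, and Cst3, encoding cystatin C, at 149 ± 25.0 and 164 ± 22.1. For Hrg, Kng1 and Kng2 the highest library was KO replicate 2, not KO replicate 3.

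Selenop encodes selenoprotein P, which carries selenium from the liver to other organs. The gene (MSTRG.1150|ENSMUSG00000064373) lies on the plus strand of chromosome 15, 3268547 to 3280508. Its level was 3085, 3318 and 2544 TPM in WT and 3847, 3632 and 2913 in KO libraries. It had the smallest p of the set (limma unadjusted p = 0.268; exact two-sided permutation p = 0.30, where 0.10 is the smallest possible), with a log2 difference of +0.21 and a standard error of 0.18. It was the only member higher in KO in all 3 same-numbered pairs (+0.32, +0.13 and +0.20), as were 26.9% of tested genes. Ccdc152 overlaps Selenop on the opposite strand, sharing 439 of the 2842 exonic bases of Selenop, and was at 2.91 and 3.55 TPM. How reads were assigned to strands is not stated, so those in that stretch cannot be assigned to a strand.

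Of 25 selenoprotein and selenium-handling genes, Selenop included, 21 were above 0 with a median of +0.13 (14 and +0.03 with median-ratio scaling), and 1 of the 25 had an unadjusted p below 0.05, a share near the 3.15% of all tested genes. That was Pstk, the kinase that prepares the selenocysteine tRNA, at 7.05, 6.41 and 6.69 TPM in WT and 8.50, 9.55 and 10.8 in KO libraries (log2 difference +0.45, standard error 0.13, limma unadjusted p = 0.0093, adjusted 0.993). Pstk was also the only 1 of the 25 in which the labels did not overlap, against 9.08% of all tested genes. Selenok, which encodes an endoplasmic reticulum selenoprotein, was at 56.3 ± 7.76 and 72.4 ± 10.6 TPM and Gpx3, the plasma glutathione peroxidase gene, at 3.17 ± 0.816 and 4.48 ± 1.11. Gpx1, the main cytosolic glutathione peroxidase, was at 2347 ± 423 and 2570.4 ± 415.

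Lect2 encodes leukocyte cell-derived chemotaxin 2, a plasma protein that binds the receptors MET and TIE1. The gene (MSTRG.956|ENSMUSG00000021539; chromosome 13, 56542464 to 56548502, minus strand) was at 241, 244 and 207 TPM in WT and 257, 202 and 166 in KO libraries. The highest and the 2 lowest libraries were KO. The log2 difference was -0.16 with a standard error of 0.18 (limma unadjusted p = 0.395; 95% interval -0.58 to +0.26). Its neighbours Fbxl21 and Tgfbi were at 2.82 and 15.97 TPM in WT and 3.15 and 18.2 in KO libraries.

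**Figure D4:**
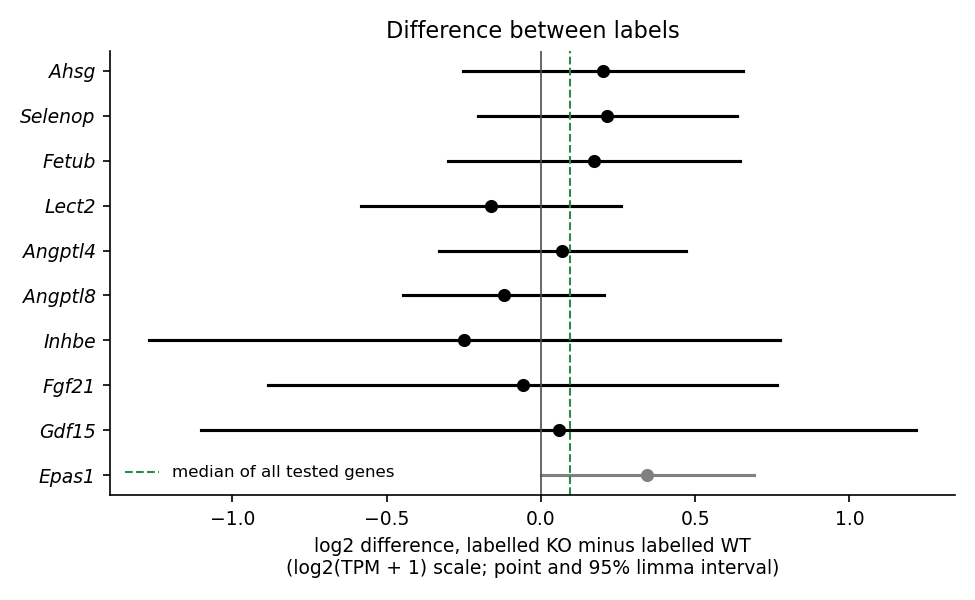
log2 difference (KO minus WT, log2(TPM + 1) scale) of each hepatokine gene, in order of level, and of Epas1, with 95% limma intervals; the dashed line is the median of all tested genes. Every hepatokine interval includes 0, and those of Gdf15, Inhbe and Fgf21 are the widest.

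Receptors for these proteins were measured in the same livers. Of 19 receptor and co-receptor genes 12 were tested, 10 of them above 0, and 0 passed (median +0.16; 8 and +0.06 with median-ratio scaling). Gfral was listed at 0 in all libraries, Ret in 5 of 6, and Acvr1c and Lrp8 did not exceed 0.026 and 0.386 TPM. Klb, encoding beta-Klotho, was at 11.7, 11.4 and 8.32 TPM in WT and 9.60, 15.1 and 12.9 in KO libraries, and Fgfr1, its partner for FGF21, was at 2.15 ± 0.784 and 1.91 ± 0.685. Insr, the insulin receptor gene, was at 14.9 ± 2.31 and 17.5 ± 3.07 TPM, Met at 17.3 ± 3.54 and 18.8 ± 2.23 and Lrp1 at 112 ± 19.5 and 126 ± 12.6. The type I activin receptor gene Acvr1b was at 3.18, 2.42 and 2.28 TPM in WT and 3.39, 3.76 and 3.39 in KO libraries (limma unadjusted p = 0.063). It was the only 1 of the 12 in which the labels did not overlap, against 9.08% of all tested genes. Fgfr2 and Fgfr3 were at 8.49 ± 1.01 and 7.002 ± 1.37 TPM in WT and 11.1 ± 2.69 and 8.79 ± 1.37 in KO libraries.

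Of 15 tested activin and inhibin family genes, Inhbe included, 9 were above 0 with a median of +0.08 and 0 passed (7 and -0.024 with median-ratio scaling). The labels did not overlap in 2 of the 15, against 9.08% of all tested genes. These were Acvr1b and Acvr1, the latter at 4.66 ± 0.704 and 5.96 ± 0.570 TPM. The follistatin-like gene Fstl1 was at 2.15 ± 0.274 and 2.95 ± 1.03. In the HIF pathway list 10 of 13 were above 0 (median +0.11; 8 and +0.01 with median-ratio scaling) and 1 of the 13 had an unadjusted p below 0.05, against 3.15% of all tested genes. The labels did not overlap in 3 of the 13, Ndrg1, Epas1 and Hif1an, against 9.08%. The hypoxia-responsive gene Ndrg1 was at 2.65, 2.95 and 2.97 TPM in WT and 3.47, 4.84 and 5.27 in KO libraries (limma unadjusted p = 0.017, adjusted 0.993). Hif1an, which encodes the HIF hydroxylase FIH, was at 4.42 ± 0.234 and 5.21 ± 0.424. Of 13 hepatocyte transcription factor genes 9 were above 0 (median +0.10; 6 and -0.011 with median-ratio scaling) and 0 passed. Foxa2, a liver pioneer factor, was at 7.92, 15.6 and 11.7 TPM in WT and 10.9, 20.8 and 28.9 in KO libraries. Foxa1 was at 6.06, 6.89 and 5.95 and at 5.88, 7.88 and 13.2 TPM, and Foxa3 at 24.4, 20.7 and 23.3 and at 20.4, 23.5 and 41.8. All 3 were highest in KO replicate 3, and KO replicate 1 was below the WT mean in each. Ahsg and Fetub were also highest in KO replicate 3. In the same list Onecut1 and Hnf4a were highest there too, whereas Nr1h4, Prox1 and Nr1i3 were lowest there. A link between these genes was not tested.

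Of 18 other tested liver-secreted factors, 12 were above 0 with a median of +0.10 and 0 passed (7 and -0.016 with median-ratio scaling). Angptl6, an ANGPTL family member, was at 6.82, 7.87 and 7.28 TPM in WT and 8.48, 9.44 and 8.38 in KO libraries (limma unadjusted p = 0.097). It was the only 1 of the 18 in which the labels did not overlap, against 9.08% of all tested genes. Igfbp2, an insulin-like growth factor binding protein gene, was at 207.5 ± 92.2 and 283 ± 44.7, and Leap2, the antagonist of the ghrelin receptor, at 140.04 ± 19.4 and 115 ± 27.3.

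**Figure D5:**
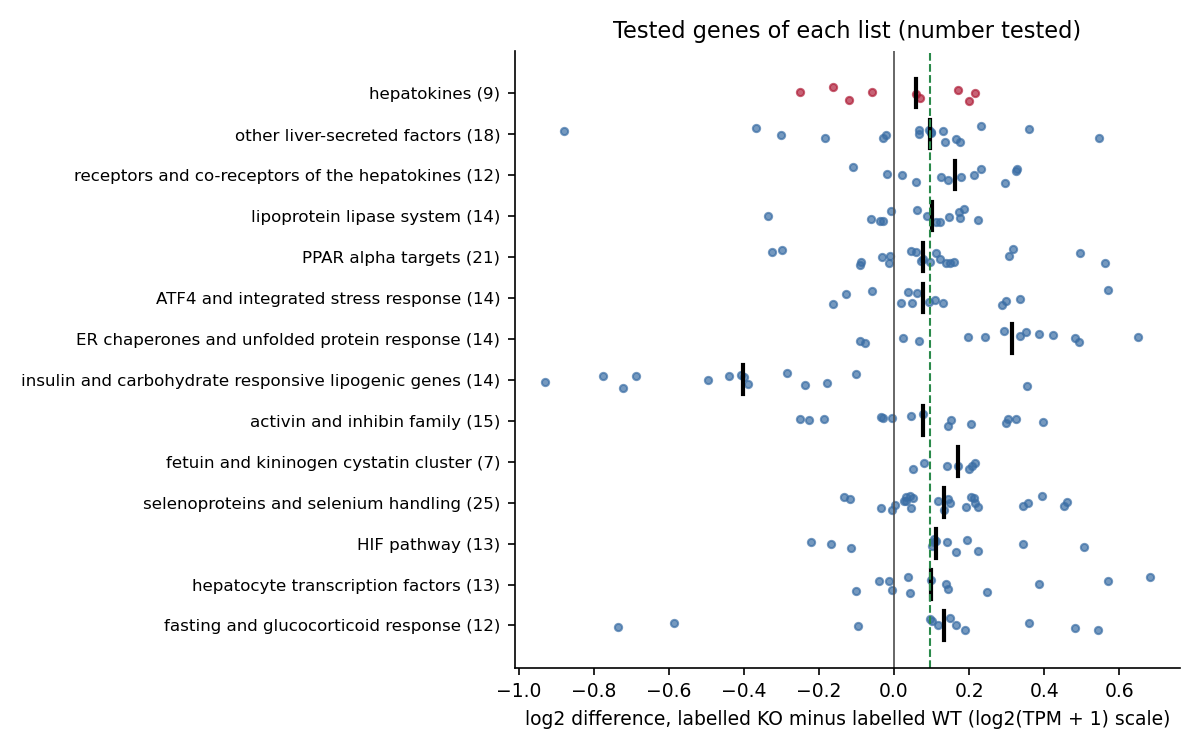
log2 difference (KO minus WT) of each tested gene (points) in the hepatokine list and 13 fixed lists, with black bars for list medians and a dashed line for the median of all tested genes. The hepatokine median of +0.06 lies close to that line, the unfolded protein response list has the highest median (+0.31) and the lipogenic list the lowest (-0.40). In the lipogenic list only KO replicate 3 had a per-library mean outside the WT range.

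The summed TPM of the 9 hepatokine genes was 8037, 7887 and 7621 in WT and 8436, 9050.3 and 9689 in KO libraries, 0.762% to 0.969% of all TPM. These sums did not overlap between the labels and follow Ahsg and Selenop. After median-ratio scaling they were 7762, 8028 and 8673 in WT and 7940, 8360.1 and 9883 in KO libraries, and overlapped.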

How the data were processed

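The authors deposited 1 table of TPM for 54600 genes and 6 libraries, with every column adding up to 1000000. Per the submitters' processing notes, the tools were HISAT2, featureCounts, fastp, limma and DESeq2, on mm10; versions, roles and the step that gave TPM are not stated there. A symbol was found for 51492 of 54323 Ensembl identifiers, and a symbol with several rows used the one with the highest mean. Coordinates are from GENCODE M21, on the same build.

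The 11440 genes that reached 1 TPM in 3 or more libraries were tested on log2(TPM + 1) with limma 3.58.1 in R 4.3.3 (variance trend, two-sided, Benjamini-Hochberg over all tested genes). Fold changes on that scale understate changes of low genes. TPM keeps no read totals, so depth is unknown and no count model was used. The step was tested on simulated data in which 200 of 11440 genes differed, all with a mean of at least 5 TPM. Changes were made on the TPM + 1 scale. The step recovered 16%, 50%, 84% and 86% of 50 genes each changed 1.5-, 2-, 3- and 4-fold, with 9 false calls. Fgf21 and Gdf15, with means of 1.88 and 1.32 TPM, were below that level, so the recovery does not cover them. With fewer changed genes the adjusted threshold is stricter, and the noise was drawn separately for each gene. The shares recovered therefore do not give the recovery of a lone changed gene in the real libraries. The members and lists were chosen with earlier results of these data known, and lists are given as counts and medians with no set test. Genes named are the members, Epas1, up to 3 members of each pathway list with the smallest p, genes next to or overlapping a member, and the genes of most similar pattern; a gene that the rule names may be not reported here. Others, among them Lpl, Gpx1, Spp1 and the receptor genes beyond the 3 with the smallest p, were chosen after their values were seen.

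Both groups have libraries numbered 1 to 3, and the labels do not link equal numbers to one litter, cage or day. After the group means were removed, equal numbers correlated across genes at 0.16, 0.41 and 0.38, all over 0.1. Unequal numbers correlated at -0.37 to 0.03. Removing group means forces negative values among unequal numbers wherever equal ones are positive, so the unequal values add no separate support. The numbers were treated as a possible pairing, from the data. Alternatives were other pseudocounts, filters, scalings and variance models, the replicate block, and leaving out each library.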

Additional observations from a re-analysis of the deposited data

How the results depend on the processing

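No hepatokine gene was called under any of 18 alternatives, and 1, Fetub, had an unadjusted limma p below 0.05, without KO replicate 1 (the count was 0 to 1 over the fits that left out a library). Lect2, Fetub, Ahsg, Angptl8, Selenop and Epas1 kept their direction under all 18. Angptl4 turned to -0.040 with median-ratio scaling, alone or with the replicate block, and to -0.012 with quantile normalization. Gdf15 turned to -0.22 with a pseudocount of 0.1 and to -0.031 once the mitochondrial and the 20 most abundant genes were taken out of TPM. Leaving out each library gave ranges of -0.37 to +0.34 for Fgf21, -0.19 to +0.54 for Gdf15, -0.078 to +0.20 for Angptl4 and -0.52 to +0.26 for Inhbe. These reversals are of differences that passed no threshold, and the cause was not tested. Fgf21 and Gdf15 gave no value with a filter of 5 TPM, and Gdf15 none when KO replicate 1, KO replicate 3 or WT replicate 3 was left out.

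Over all genes, the count called lower was 1, but 0 with a pseudocount of 5, no filter, a filter of 5 TPM, quantile normalization, the replicate block or the block with median-ratio scaling, and 0 to 2 without a library. The count called higher was 0, and 0 to 2 without a library (2 without WT replicate 2). Genes with an unadjusted limma p below 0.05 were 316 higher and 44 lower, 150 and 144 with median-ratio scaling, 141 and 155 with quantile normalization, 258 and 114 without the most abundant genes, 602 and 105 with the replicate block, and 250 and 260 with the block and median-ratio scaling. Without a library they ran from 182 (without WT replicate 3) to 457 (without WT replicate 1) higher and from 34 to 87 (without KO replicate 2; 82 without KO replicate 1) lower. The block, which treats same-numbered libraries as pairs, changed no member's call (smallest unadjusted limma p 0.110, or 0.084 with median-ratio scaling). The unknown depth limits what the low values of Fgf21 and Gdf15 can show.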

Other observations

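Summed TPM of the lipogenic genes ran from 1903 to 8516 in WT and from 662 to 5532 in KO libraries. Cfd, which encodes the adipokine adipsin and is also expressed in fatty liver, was at 23.2, 1.15 and 0.385 TPM in WT and at 22.3 and 2.47 TPM in KO replicates 1 and 2, and was listed at 0 in KO replicate 3. The PPAR alpha targets Cyp4a10 and Cyp4a14, fatty acid hydroxylases, were at 74.5, 82.3 and 17.1 and at 61.0, 59.2 and 2.57 TPM in WT, and at 226, 72.8 and 20.8 and at 175, 31.0 and 5.63 TPM in KO libraries, so the libraries numbered 3 were the lowest of each label for both. Cfd, Cyp4a10 and Cyp4a14 were chosen after their values were seen, and the last 2 are among the widest-ranging of the 21 PPAR alpha targets. Others varied less: Cpt2, of fatty acid oxidation, ran from 50.4 to 75.1 TPM in WT and from 55.9 to 69.6 in KO libraries.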
